A study of Mus musculus with 2 samples.

Results

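The wounded cells named Basal are 1 of the 6 groups of cells that were named in the wounded single-cell library of the mouse anorectal junction. They were taken as the cell barcodes that carry the name Basal in the deposited table of wounded cells, and their UMIs (unique molecular identifiers, 1 per captured RNA molecule) were read from the deposited count matrix. The name was given to 573 of the 4147 named wounded cells (13.8%), out of 5086 named cells in both libraries. The other wounded names are Hybrid, Rectum, Regeneration, Suprabasal and Wound_Stress. The normal names are Anal Canal, Basal, Rectum and Suprabasal.

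Both libraries came from pooled adult C57/BL6J mice that carried K17CreERT2, a tamoxifen-activated Cre recombinase driven by the keratin 17 promoter, and R26R-GFP, the reporter it switches on. By the study's description, mice of both conditions were given tamoxifen before the cells were sorted. In the wounded condition the rectal glands beside the transition zone were removed with hot EDTA and a brush, and cells were prepared 1 week later, whereas the normal condition had no wound. The cells were sorted with a strategy based on Epcam, and the gating that the study describes for epithelial cells also left out those positive for CD45, CD11b, CD31 or PDGFRa, so the names hold cells that passed this gate. Each condition is 1 library, without a replicate. Cells of 1 library are not replicates of a condition, so no test was made, and the intervals given here are 95% intervals that cover counting error only. Library and condition cannot be told apart in any comparison between the 2 libraries.

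The anal canal is lined by a stratified squamous epithelium. Its basal layer divides, rests on the basement membrane, and expresses Krt5, Krt14, Krt15 and hemidesmosome genes. Cells that move up from this layer switch to other keratin pairs, Krt1 with Krt10 in skin-like epithelium and Krt4 with Krt13 in moist mucosa. The transition zone towards the rectum is marked by Krt17, and the rectum is a simple glandular epithelium that expresses Krt8.

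The 573 cells named Basal held 5739922 UMIs in all. Their median depth was 9075 UMIs (lowest 960, highest 28034) and 2463 detected genes, and a median of 8.53% of the UMIs came from mitochondrial genes. The 432 normal Anal Canal cells had medians of 8437.5 UMIs, 2314 genes and 4.28% mitochondrial UMIs. The 257 normal Basal cells had medians of 9971 UMIs, 2544 genes and 4.77%. Among the wounded names, Suprabasal had a median of 10594 UMIs and 8.39% mitochondrial UMIs, while Hybrid stood apart with a median of 2390 UMIs. None of the 573 barcodes occurred in the normal library, and 1 barcode of any kind occurred in both libraries.

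The name was first checked against its keratins, and the data went against it in part. Krt10 (ENSMUSG00000019761, chr11:99385254-99389364 in GRCm38, the mm10 build), the type I keratin of skin-like suprabasal cells, stood at 1987 CPM (counts per 1e+06 UMIs of the same cells; interval 1951 to 2024) in the wounded cells named Basal. It was at 88.7 CPM in wounded Suprabasal, 17.8 in Regeneration, 42.5 in Wound_Stress, 366 in Hybrid and 118 in Rectum. In the normal library Krt10 was at 2228 CPM in Anal Canal, 48.4 in Basal, 162 in Suprabasal and 35.5 in Rectum. The wounded cells named Basal were thus the highest of the 6 wounded names for a keratin that normal cells of the same name held at a low level.

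Krt1 (ENSMUSG00000046834, chr15:101845426-101850794), the type II partner of Krt10, was at 2473 CPM (2433 to 2514) in the wounded cells named Basal and 2286 in normal Anal Canal. It was at 98.7 CPM in wounded Suprabasal, between 9.07 and 279 in the other wounded names, and at 17.4 in normal Basal. Krt4 (ENSMUSG00000059668, chr15:101918535-101924735), a type II keratin of moist mucosa, was at 756 CPM (734 to 779) in the wounded cells named Basal and 864 in normal Anal Canal, against 11.1 in wounded Suprabasal, 73.5 in Hybrid and 1.48 in normal Basal. Gpc3 (ENSMUSG00000055653, chrX:52272426-52613950), a heparan sulfate proteoglycan of the cell surface, was at 63.4 CPM (57.1 to 70.3) against 68.9 in normal Anal Canal, 19.96 in normal Basal and 5.60 to 14.5 in the other wounded names. These 4 genes are the markers given for the cells, and each was near its level in normal Anal Canal.

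**Figure D1:**
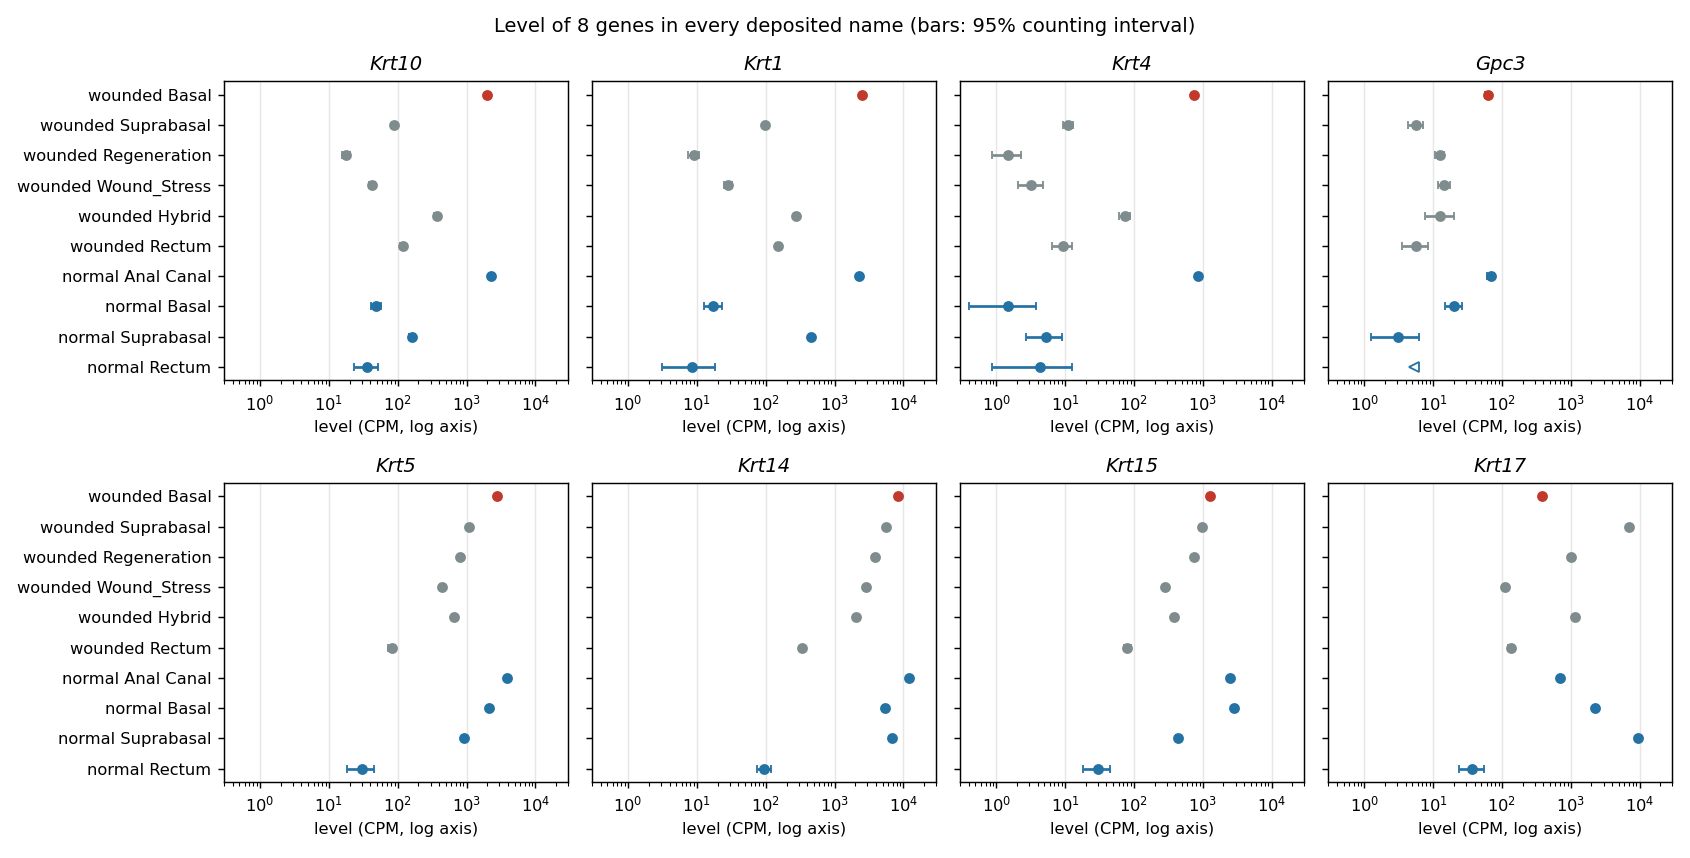
Level of 8 genes (CPM, log axis) in each deposited name. Red marks the wounded cells named Basal, grey the other wounded names and blue the normal names; points are summed levels, bars 95% Poisson intervals, and an open triangle is the upper bound for a gene at 0 UMIs. Krt10, Krt1, Krt4 and Gpc3 of the wounded cells named Basal lie beside normal Anal Canal, and Krt17 is at 381 CPM there against 7100 in wounded Suprabasal.

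Keratins of the basal layer had high summed levels as well. Krt5 was at 2770 CPM in the wounded cells named Basal, against 1077 in wounded Suprabasal, 795 in Regeneration and 433 in Wound_Stress. Krt14, the partner of Krt5, was at 8434 CPM against 5594, 3912 and 2815 in the same names. Krt15, a keratin of basal and stem cells, was at 1259 CPM against 983, 747 and 287. The shares of cells with a UMI, after each cell was thinned to 2000 UMIs, did not follow these sums for Krt14 and Krt15, and no order is read from them. Krt14 was in 92.6% of the cells named Basal, 99.4% of Suprabasal and 99.6% of Regeneration, and Krt15 in 47.9%, 52.4% and 50.8%, whereas Krt5 was in 87.2%, 73.8% and 63.1%. Col17a1, the hemidesmosome collagen that anchors basal cells, was at 248 CPM against a range of 7.54 to 102 in the other wounded names. Krt17 was at 381 CPM, and 1 cell held 29.5% of its UMIs. Markers of basal and of suprabasal layers were therefore found under 1 name, and the cells are called here by that name without a new cell type.

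Over 11606 genes, the summed profile of these cells was nearest to normal Anal Canal. Pearson's r of log2(CPM + 10) was 0.95 with normal Anal Canal, 0.88 with normal Basal, 0.87 with normal Suprabasal and 0.76 with normal Rectum. Spearman's rho was 0.92, 0.82, 0.81 and 0.66 in the same order. Normal Basal was the nearest normal name of wounded Regeneration (r = 0.92), Wound_Stress (0.89) and Hybrid (0.87), and wounded Suprabasal was nearest to normal Suprabasal (0.95). These are correlations across genes, which are not independent replicates. Names of 1 library share its preparation, while their median depth differs, from 2390 UMIs in Hybrid to 12616 in Regeneration.

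**Figure D2:**
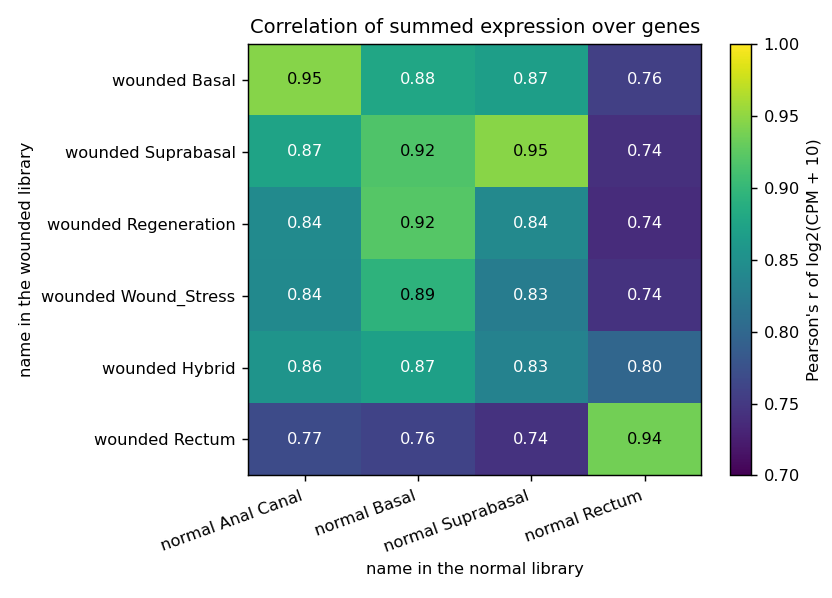
Pearson's r of log2(CPM + 10) over 11606 genes between each wounded name (rows) and each normal name (columns), with the color scale running from 0.7 to 1. The row of the wounded cells named Basal reaches 0.95 in the Anal Canal column and 0.88 in the Basal column.

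Thinning each cell to 2000 UMIs, to compare shares at 1 depth, left out 9 of the 573 cells. Krt10 then had a UMI in 33.9% of 564 cells (30.0 to 37.9%), Krt1 in 46.8% (42.6 to 51.0%), Krt4 in 33.5% (29.6 to 37.6%) and Gpc3 in 11.5% (9.01 to 14.5%). Without thinning these shares were 49.2%, 64.9%, 47.6% and 34.6%. In the wounded Rectum cells, glandular cells that should lack these genes and had a median of 9991 UMIs, the thinned shares over 354 cells were 2.82%, 1.98%, 1.69% and 2.54%. In 397 normal Anal Canal cells they were 36.0%, 43.6%, 40.3% and 11.6%. Each marker was thus found in a part of the cells, at a share above that of the glandular cells.

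Dividing cells were also counted. Mki67, a marker of proliferation, had a UMI in 20.6% of the thinned cells (17.3 to 24.1%), against 10.8% (7.95 to 14.3%) in normal Anal Canal, 8.24% in normal Basal, 3.83% (1.55 to 7.72%) in normal Suprabasal, 10.0% (3.76 to 20.5%) in normal Rectum, 9.90% (8.14 to 11.9%) in wounded Suprabasal and 15.8% in wounded Rectum. It was 11.6% in Regeneration, 10.9% in Wound_Stress and 21.7% (16.0 to 28.4%) in Hybrid, of which 184 of 316 cells were deep enough. The unthinned shares were 32.3% in the cells named Basal and 28.0%, 19.5%, 8.56%, 28.6%, 16.3%, 29.2%, 24.0%, 19.6% and 24.7% in these names in turn. Thinned to 2000 UMIs, the Mki67 share was also higher in wounded than in normal Suprabasal, with intervals that did not overlap. This separation depended on the depth. Thinned to a higher depth, the shares were 12.1% (9.97 to 14.4%) and 6.62% (3.22 to 11.8%), with overlapping intervals, and the intervals overlapped at a lower depth too. Each interval covers counting error within 1 library, so a difference between the conditions was not tested. For Top2a, the topoisomerase of dividing cells, the thinned shares were 15.8% (12.9 to 19.1%) in the wounded cells named Basal, 9.57% (6.86 to 12.9%) in normal Anal Canal and 22.8% (16.97 to 29.6%) in wounded Hybrid. They were 7.84%, 4.92% and 6.67% in normal Basal, Suprabasal and Rectum. In wounded Suprabasal, Rectum, Regeneration and Wound_Stress they were 6.57%, 10.7%, 10.2% and 10.02%. The Top2a intervals of normal Suprabasal (2.27 to 9.13%) and wounded Suprabasal (5.13 to 8.27%) overlapped.

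Within the cells, Krt10 went with Krt1 and Krt4 and against Krt15. Of the 191 thinned cells with a Krt10 UMI, 81.7% also had Krt1 (75.4 to 86.9%), against 29.0% (24.4 to 33.8%) of the 373 cells without Krt10. Krt4 was found in 53.9% and 23.1% of the same cells. Krt15 was found in 16.8% (11.8 to 22.8%) of the cells with Krt10 and 63.8% (58.7 to 68.7%) of those without it, and Krt5 in 72.8% and 94.6%. The shares of Krt13 (33.5% and 26.3%) and Gpc3 (10.99% and 11.8%) had intervals that overlap. Mki67 was found in 15.2% (10.4 to 21.1%) and 23.3% (19.1 to 28.0%).

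Normal Anal Canal cells had the same order for Krt1, Krt4 and Krt15. There, Krt1 was found in 69.2% of the 143 cells with Krt10 and 29.1% of the 254 without it, and Krt15 in 41.96% (33.8 to 50.5%) and 77.2% (71.5 to 82.2%). Among cells with Krt10, the share that also held Krt15 was therefore 16.8% in the wounded cells named Basal and 41.96% in normal Anal Canal, and the share that held Krt5 was 72.8% (65.9 to 79.0%) and 93.0% (87.5 to 96.6%). When a cell with Krt10 or Krt1 is set against a cell with Krt4 or Krt13, 158 of the 564 wounded cells had both kinds, 141 the first kind alone, 86 the second alone and 179 neither. The counts in the 397 normal cells were 104, 113, 85 and 95. UMIs of skin-like and mucosal keratins were thus found in the same thinned cell in both libraries. A cell counted with the first or second kind alone may still express the other, because the shares depend on depth. In the wounded cells named Basal, Krt10 was found in 33.9% of thinned and 49.2% of unthinned cells, and Krt4 in 33.5% and 47.6%. Whether the kinds also occur apart was therefore not tested, nor was the part of background UMIs in the cells with both.

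**Figure D3:**
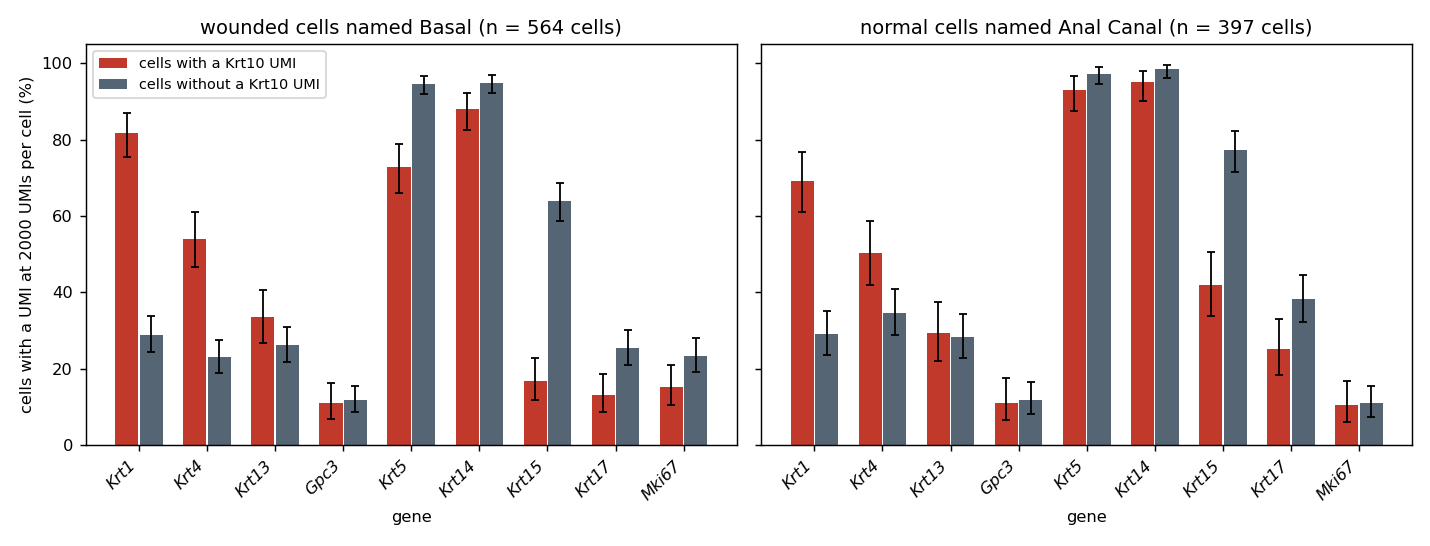
Share of cells with a UMI of each gene (percent, each cell thinned to 2000 UMIs) among cells with a Krt10 UMI and cells without one, in the wounded cells named Basal (left, n = 564 cells) and normal Anal Canal (right, n = 397 cells). Bars are shares and lines 95% Clopper-Pearson intervals; Krt1 is more frequent with Krt10 and Krt15 without it in both panels.

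Clustering the 573 cells alone, with the settings of the study, gave 3 groups. Their leading genes are those that the clustering used, so they are given as a description. Group 1 held 224 cells with a median of 10215 UMIs, group 2 held 203 cells with 7288 UMIs and group 3 held 146 cells with 10711 UMIs. The median mitochondrial shares were 9.49%, 8.87% and 6.76%, and the part that depth and these shares play in the groups was not tested.

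Group 1 had the highest levels of Krt1 and Krt10, although the skin-like list was about as high in group 3. Krt1 was at 4378 CPM in group 1, 232 in group 2 and 1918 in group 3, and Krt10 at 3239, 80.0 and 2081 CPM. The 14 genes of the epidermal suprabasal list summed to 15518 CPM in group 1, 2743 in group 2 and 13619 in group 3, and the 22 genes of the cornified envelope list to 437, 39.1 and 3885 CPM. Mt4, a metallothionein of squamous epithelia, was at 1629, 7.11 and 396 CPM. Of the 5 genes with the largest ratio over the other groups, Stfa3, a stefin that inhibits cysteine proteases, was at 3252 CPM against 52.6 and was seen in 198 of the 224 cells. Grxcr2 had 132 UMIs in 56 cells and 0 in the other groups. The remaining 3 were Krt71, Krt27 and Krt25, keratins of the inner root sheath of the hair, and 1 cell held 97.4%, 93.4% and 95.1% of their UMIs in the group. Tgm3, a transglutaminase of late squamous cells that ranks next when genes with 10% or more of their UMIs in 1 cell are left out, was at 233 CPM against 6.39 and was seen in 145 cells. That filter was chosen after the values were seen.

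Group 2 had the highest levels of Krt15 and of hemidesmosome genes. Krt15 was at 3191 CPM in group 2, against 319 in group 1 and 662 in group 3. Col17a1 was at 415 CPM against 264 and 46.3, and Dst, a plakin of the hemidesmosome, at 693 against 280.1 and 144. The 13 genes of the hemidesmosome and basement membrane list summed to 2339 CPM in group 2, 1297 in group 1 and 688 in group 3. The 12 genes of the stratified basal layer list were closer, at 16190.2, 13605 and 11587 CPM in groups 2, 1 and 3. The 5 leading genes by ratio were Stmn2, Emp3, Dlk2, Prss23 and Dcn. Dlk2, a membrane protein related to Notch ligands, was at 83.5 CPM against 6.42 in the other groups and was seen in 92 of the 203 cells. Stmn2 was seen in 11 cells, and 1 of them held 38.1% of its UMIs. Dcn, the fibroblast proteoglycan decorin, was at 130 CPM in 42 cells.

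Group 3 held the mucosal genes. Krt13, the type I partner of Krt4, was at 4770 CPM in group 3, 69.7 in group 1 and 286 in group 2, and Krt4 was at 2183, 259 and 129 CPM. Krt6a, a keratin of mucosa and of activated epithelium, was at 2183, 101 and 246 CPM. The 16 genes of the mucosal squamous list summed to 14580.3 CPM in group 3, against 898 in group 1 and 1565 in group 2. The leading genes by ratio were Sprr2d and Cnfn, of the cornified envelope, Psca, a surface antigen, Ltf, the antimicrobial protein lactoferrin, and Prss27, a serine protease. They were seen in 22, 27, 40, 35 and 32 of the 146 cells, and 10.9 to 18.03% of their UMIs came from 1 cell. Krt13 itself was seen in 126 of the 146 cells.

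In thinned cells the intervals of Krt13 were apart in all 3 groups, whereas Krt15, Krt10 and Krt1 set group 2 apart and had overlapping intervals in groups 1 and 3. The groups were made from the expression of these same cells, so the intervals describe the groups and test nothing. Krt15 had a UMI in 19.9% (14.9 to 25.8%), 90.5% (85.6 to 94.2%) and 31.5% (24.0 to 39.8%) of groups 1, 2 and 3, and Krt13 in 4.07%, 22.5% and 75.5%. Krt10 was in 44.3% (37.7 to 51.2%), 10.0% and 51.05% (42.6 to 59.5%), and Krt1 in 60.2% (53.4 to 66.7%), 26.5% and 54.5% (46.0 to 62.9%). Krt14 was in 91.9% of group 1, in each of the 200 thinned cells of group 2 and in 83.2% of group 3, and Gpc3 in 9.95%, 13.5% and 11.2% with overlapping intervals. Mki67 was in 16.3% (11.7 to 21.8%), 27.5% (21.4 to 34.2%) and 17.5% (11.6 to 24.7%), although the cell-cycle scores had been regressed. The cells of group 2 stayed together at a finer resolution of 0.4, where all 203 fell in 1 group and group 1 divided into 113 and 107 cells with 4 elsewhere. Without the regression the division changed: 97 cells of group 1 shared a group with 77 of group 3, and the 203 cells of group 2 fell into groups of 145, 47, 8 and 3.

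**Figure D4:**
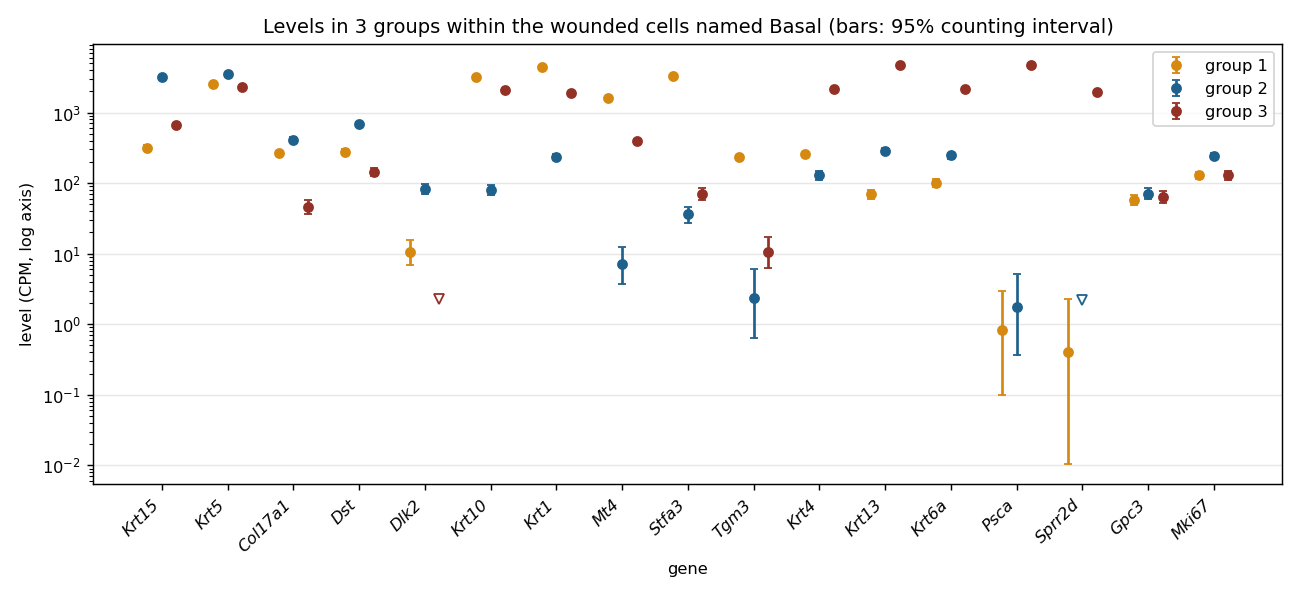
Levels (CPM, log axis) of 17 genes in the 3 groups found within the wounded cells named Basal (224, 203 and 146 cells). Points are summed levels, bars 95% Poisson intervals and open triangles upper bounds for 0 UMIs; Krt15, Dst and Dlk2 are highest in group 2, Krt1, Mt4, Stfa3 and Tgm3 in group 1, and Krt4, Krt13 and Psca in group 3.

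Single cells set a few of the sums. The same cell of group 1 held 751 of the 816 Krt25 UMIs, 718 of the 746 Krt71 UMIs and 141 of the 153 Krt27 UMIs of the 573 cells. A cell of group 3 held 2179 of the 2940 UMIs of Cst6, a cystatin protease inhibitor, with 645 UMIs of Krt17 and 308 of Krt79. This cell had 26124 UMIs, 4 of the 573 cells had more, and its Scrublet doublet score was 0.111 against a median of 0.0425. Without it, Krt17 was at 269.9 CPM and Cst6 at 133 CPM, from 381 and 512.

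Against the 3574 other named wounded cells, 609 of 11404 genes with at least 100 UMIs were at least 2-fold higher in the cells named Basal (5.34%) and 1460 at least 2-fold lower (12.8%), with a median log2 ratio of -0.01. The names were made from expression, so these ratios describe the cells and test nothing. The given markers had log2 ratios of 4.84 (4.78 to 4.91) for Krt10, 5.21 (5.15 to 5.27) for Krt1, 6.48 (6.32 to 6.65) for Krt4 and 2.66 (2.45 to 2.87) for Gpc3. With the mean over cells of each cell's own CPM they were 3.92, 4.51, 5.26 and 2.43, so the choice of summary moved the keratin ratios by more than their counting intervals. Among the 10 genes with the largest ratios, Krt13 was at 1443 CPM against 12.4 in the others and was seen in 224 cells. Wnt16, a Wnt ligand, was at 41.6 CPM against 0.292 and was seen in 124 cells, and Calcb, a calcitonin-related peptide, at 129 CPM against 0.664 in 115 cells. Tmprss11d, a serine protease, was at 84.1 CPM against 0.824 in 90 cells. The other 6 were each seen in 13 to 44 cells: Sprr2d, Ppbp, Ltf, Sprr2f, Psca and Prss27, with log2 ratios from 6.84 to 11.34.

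The 10 genes with the smallest ratios were nearly absent from these cells. Igha, an immunoglobulin heavy chain, had 0 UMIs against 1974 in the other wounded cells, at least 100.4-fold lower when 3 UMIs are allowed for the 573 cells. Igkc had 2 UMIs against 5838 (log2 ratio -8.80, interval -11.84 to -6.94). Pyy, a gut hormone, was at 3.66 CPM against 637 (log2 ratio -7.44). Jchain, Insl5, Chgb, Cd177, Pdk4, Rasd1 and Saa2 had 1 or 2 UMIs each.

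The counts of the lists stand beside 5.34% of all genes at least 2-fold higher and 12.8% lower. A gene can pass the UMI filter through the cells named Basal alone or the other cells alone, so these counts are a description. Of 10 counted mucosal squamous genes 9 were at least 2-fold higher than in the other wounded cells and 0 lower (median 4.24), and of 13 epidermal suprabasal genes 8 were higher and 2, Calml3 and Skint3, lower (median 1.01). Of 12 stratified basal layer genes 4 were higher and 0 lower (median 0.95), namely Krt5, Krt14, Col17a1 and Lamb3, a laminin chain. Of 18 squamous transcription factors 6 were higher, among them Sox2 (61.0 CPM against 3.32), Sox15 (36.2 against 2.66), Barx2 (216 against 36.4) and Foxe1 (12.0 against 0.877), and Gata3 was lower. Of 11 retinoid genes 6 were higher and Crabp2 lower, and Aldh1a3, an enzyme of retinoic acid synthesis, was at 44.3 CPM against 1.81, in 44 cells. The 14 immediate-early genes were all at least 2-fold lower (median -3.46): Fos was at 102 CPM against 1196, Jun at 142 against 1634 and Atf3 at 24.4 against 542. Their summed level differed widely among the other names, at 17232 CPM in Regeneration, 4049 in Suprabasal, 3728 in Hybrid, 2978 in Rectum and 1261 in Wound_Stress, the last close to the 932 CPM of the cells named Basal. Wounding genes went both ways, with Krt16 (117 CPM against 14.4) and S100a9 (43.4 against 1.94) higher and Lcn2 (54.0 against 1026) lower, 4 and 5 of 9 in each direction.

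Notch and hedgehog genes were counted in the same comparison, with too few of each to read against the background shares. Jag1, a Notch ligand, was at 55.1 CPM against 15.4 in the other wounded cells. None of the 4 Notch receptors was 2-fold higher and 1, Notch4, was lower, and Hey1 was the 1 lower gene of the 3 counted targets. Of 11 Notch modulators 1, Maml2, was higher and 0 lower. Of 8 hedgehog genes 0 were higher and 2, Ihh and Gas1, lower. Of 8 glypicans and syndecans, Gpc3 was the 1 higher gene while Gpc4, Gpc6 and Sdc4 were lower.

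The next comparison was with wounded Suprabasal, another stratified name of the same library. There, 712 of 9039 genes were at least 2-fold higher in the cells named Basal (7.88%) and 726 lower (8.03%), with a median log2 ratio of 0.13. With ratios centred on that median, 555 were higher and 852 lower. Krt10, Krt1, Krt4 and Gpc3 had log2 ratios of 4.49, 4.65, 6.10 and 3.50, and Krt5 and Krt14 of 1.36 and 0.59. Krt4 was at 7.17 with the mean of per-cell CPM. The mucosal squamous list had 8 of 9 counted genes at least 2-fold higher and 0 lower (median 3.37). A gene can pass the UMI filter through 1 of the names alone, as Krt13 and Mal did with 22 and 3 UMIs in Suprabasal. Krt4 is also a given marker, so the counts of this comparison are given as a description. The epidermal suprabasal and cornified envelope lists went both ways. Of 13 epidermal suprabasal genes 5 were higher and 3 lower (median -0.38), and of 12 cornified envelope genes 5 were higher and 4 lower (median -0.24). Mt4, a metallothionein of squamous epithelia, had a log2 ratio of 4.95, Cnfn, a cornified envelope protein, of 5.91, and the transglutaminases Tgm3 and Tgm1 of 3.90 and 1.93. Sbsn, a secreted suprabasal protein, was lower, at 218 CPM against 811, Calml3 at 136 against 894, and the envelope proteins Sprr1a at 351 against 1850.2 and Ivl at 5.92 against 46.2. Krt7, a keratin of simple and transitional epithelia, was at 379 CPM against 7.34. Krt17 went the other way (log2 ratio -4.22), as did Cst6 at 512 CPM against 53234 (-6.70, and -8.64 without its top cell). Slpi, a secreted protease inhibitor, was at 13.9 CPM against 1229, and Alox12e, a lipoxygenase of the skin barrier, at 2.79 against 344. Flt1 had 4 UMIs against 1187.

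The largest ratios over Suprabasal belonged to Ppbp, Sprr2d, Mal, Psca, Krt13, Srgn, Krt27, Stmn2, Upk3bl and Krt25. Krt13 (22 UMIs in Suprabasal) and Psca (18) had ratios of 9.57 and 9.72, and Krt25 of 7.88, or 4.23 without its top cell. Genes of cell division were counted as well, beside 7.88% higher and 8.03% lower of all genes. Of 16 mitosis genes 12 were at least 2-fold higher and 0 lower (median 1.27), and of 13 S phase genes 7 were higher and 0 lower (median 1.06). Ccnb2, a mitotic cyclin, had a log2 ratio of 1.67 and Birc5 of 1.66. Of 14 immediate-early genes 13 were lower (median -2.47). Against all other named wounded cells, 2 of 16 mitosis genes (median 0.85) and 0 of 16 S phase genes (median 0.20) were at least 2-fold higher. These are too few to read against the 5.34% of all genes in that comparison.

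Against normal Anal Canal, 523 of 7480 genes were at least 2-fold higher (6.99%) and 450 lower (6.02%), with a median log2 ratio of -0.08. With ratios centred on that median, 637 were higher and 356 lower. After the ratio of wounded to normal Suprabasal cells was subtracted, a step chosen after seeing the data, 160.0 were higher and 429 lower. The ratios of the given markers were small: -0.17 (-0.20 to -0.13) for Krt10, 0.11 (0.08 to 0.15) for Krt1, -0.19 (-0.26 to -0.13) for Krt4 and -0.12 (-0.34 to 0.10) for Gpc3. Krt13 was at 1443 CPM against 812 (0.83), Krt5 at 2770 against 3829 (-0.47), Krt14 at 8434 against 11880.4 (-0.49) and Krt15 at 1259 against 2493 (-0.99). Krt17 was at 381 CPM against 704 and Krt6a at 724 against 1724. The basal-layer keratins were thus somewhat lower in the wounded cells, while Dst was higher (364 CPM against 144, log2 ratio 1.33), as it was between the Suprabasal names (2.69). By thinned share, Krt15 and Krt5 were higher in wounded than in normal Suprabasal, at 52.4% against 29.5% and 73.8% against 57.9%. Krt14 was at 99.4% against 100% there.

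A part of these differences was also seen between other names of the 2 libraries. Of the 523 higher genes 147, and of the 450 lower genes 128, were also at least 2-fold different in the same direction both between the Suprabasal names and between the Rectum names of the 2 libraries. Nme2, a nucleoside diphosphate kinase, was at 1314 CPM against 17.3 (log2 ratio 6.24), with 6.75 between the Suprabasal names and 6.64 between the Rectum names. Atp6v0c, a subunit of the proton pump, had 1749 UMIs against 0, and 2 UMIs in all named normal cells, and Rnasek, Fdx2, Adnp and Fam89b were likewise nearly absent from the normal library. In the other direction, Rps27rt was at 51.4 CPM against 1259 (-4.61), with -4.29 and -4.78 between the other names, and Gm10260, Gm11361, Ptp4a1, Rpl10-ps3 and Wdr89 followed. The libraries were counted with different Cell Ranger versions and hold 32285 and 31054 gene IDs, 30406 of them in common. The part of this in the ratios was not tested.

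**Figure D5:**
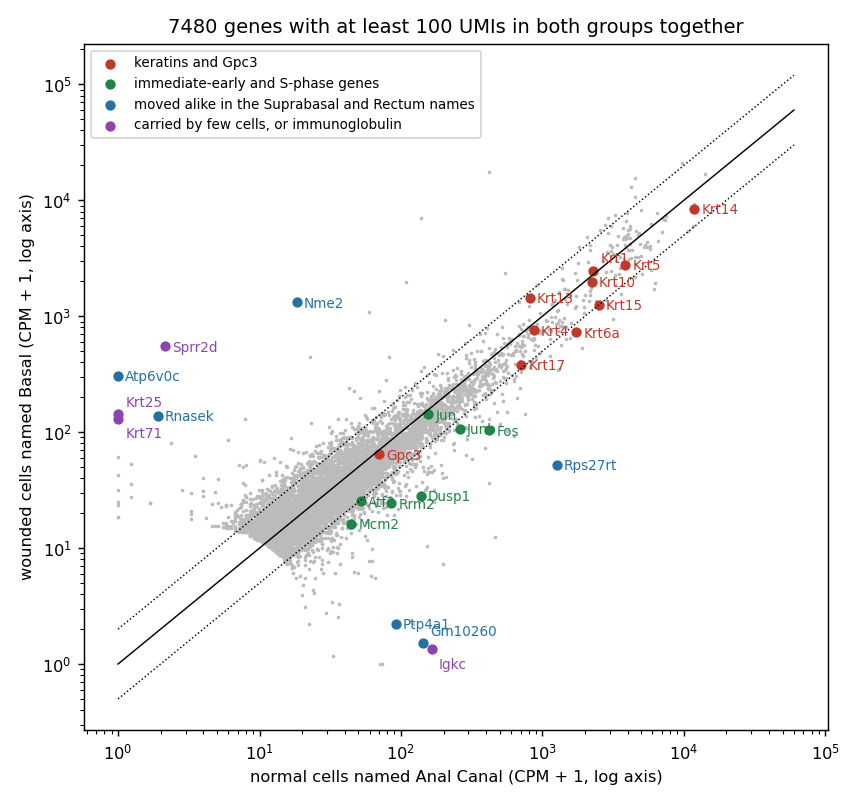
Level of 7480 genes in normal Anal Canal (x axis) and the wounded cells named Basal (y axis), as CPM + 1 on log axes; the solid line marks equal levels and the dotted lines 2-fold differences. Krt10, Krt1, Krt4, Krt5 and Krt14 lie near the solid line, Krt25 and Krt71 far above it, Krt6a (724 CPM against 1724) and immediate-early genes such as Fos (102 CPM against 420) below it, and genes that differed alike in other names, such as Nme2 and Atp6v0c, far from it.

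Sex-linked and mitochondrial genes also differed between the libraries. Xist, the RNA of the inactive X chromosome, was at 921 CPM in the wounded cells named Basal against 205 in normal Anal Canal, with log2 ratios of 2.16 here, 1.80 between the Suprabasal names and 2.12 between the Rectum names. The Y-linked gene Eif2s3y was at 5.05 CPM against 49.1, and Ddx3y at 4.53 against 23.7. Both also differed within the wounded library, where Suprabasal had 17.5 CPM of Eif2s3y and 10.3 of Ddx3y (log2 ratios of -1.79 and -1.18). The makeup of the mouse pools and the condition cannot be told apart. The 13 mitochondrially encoded genes summed to 90760.5 CPM against 44196, and to 92696 against 54067 in the Suprabasal names. Of the 13, 9 were at least 2-fold higher in the cells named Basal than in normal Anal Canal, beside 6.99% of all counted genes.

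A few genes differed from normal Anal Canal without the same shift between the Suprabasal names. Fos was at 102 CPM against 420 (log2 ratio -2.04, and 0.89 between the Suprabasal names), and Dusp1, a phosphatase of the same early response, at 27.4 against 137 (-2.33 and 0.49). In all, 6 of 13 immediate-early genes were at least 2-fold lower and 0 higher (median -0.89), beside 6.02% lower of all genes. Jun was at 142 against 154. The ratios between the Suprabasal names are given for Fos and Dusp1 alone and do not stand for the list. Lcn2, an antimicrobial lipocalin, was at 54.0 CPM against 13.01 (2.05 and 0.05), in 78 cells. Its list did not follow it, as 1 of 5 counted wounding genes was at least 2-fold higher and 2 lower (median -0.45). Other differences were shared: Dsg3, a desmosomal cadherin (1.88 and 1.69), Krt16 (-2.11 and -2.02) and Hes1, a Notch target (-1.48 and -1.02) had ratios of the same sign between the Suprabasal names.

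Replication and mitosis genes were read separately. Of 13 S phase genes 5 were at least 2-fold lower and 0 higher (median -0.88), with Rrm2, a ribonucleotide reductase subunit, at 23.3 CPM against 84.2 and Mcm2, of the replication helicase, at 15.2 against 43.4. Of 16 mitosis genes 2 were higher, Mki67 and Cenpf, and 1 lower, Cdk1 (median -0.22), too few to read against the 6.99% higher and 6.02% lower of all genes. Rrm2 and Mcm2 were also lower in wounded than in normal Suprabasal, with log2 ratios of -1.76 and -1.01. The mucosal squamous list had 1 gene higher (Mal) and 1 lower (Krt6a) of 10 counted, the epidermal suprabasal list 1 of 11 higher (Dsc1, a desmosomal cadherin), and the stratified basal layer list 1 of 12 (Dst), and nothing is read from these counts beside the same shares.

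The largest ratio over normal Anal Canal was that of Sprr2d, with 3162 UMIs against 5. It belongs to a family of 11 related genes, and how reads were divided among them was not tested, so its own value is uncertain. Summed, the family was at 761 CPM against 361 (log2 ratio 1.07, interval 0.99 to 1.16). Krt25 and Krt71 had 0 UMIs in normal Anal Canal, so their log2 ratios are lower bounds. They were at least 7.70 and 7.57, and at least 4.05 and 2.84 without the cell described above. Among the lowest genes were Igkc, Jchain and Igha, with 716, 140 and 316 UMIs in normal Anal Canal against 2, 1 and 0, and Ccer2, with 308 against 0.

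Normal cells of the same name were the last comparison. Of 6986 genes 886 were at least 2-fold higher in the wounded cells (12.7%) and 778 lower (11.1%), with a median log2 ratio of -0.03. After the ratio of wounded to normal Suprabasal cells was subtracted, a step chosen after seeing the data, 487 were higher and 826 lower. Krt4, at 756 CPM against 1.48 (log2 ratio 8.999), Krt13, at 1443 against 2.96 (8.93), Krt1 (7.15), Krt10 (5.36) and Gpc3 (1.67) were higher, as were Ltf, Psca, Mal, Sprr2d, Ppbp, Cxcl5 and Lrmp among the 10 largest ratios with Atp6v0c. Krt5 (0.38) and Krt14 (0.64) differed by less than 2-fold, and Krt15 was lower (-1.19). All 9 counted mucosal squamous genes were at least 2-fold higher (median 6.37), and 7 of 9 epidermal suprabasal genes were higher, with Calml3 lower. A gene can pass the UMI filter through the wounded cells alone, so these counts too are a description.

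Lower in the wounded cells were Krt17, at 381 CPM against 2265 (log2 ratio -2.57), and all 14 counted immediate-early genes (median -3.46), with Fos at 102 against 2154 and Junb at 106 against 1079.8. Krt17 did not stand for its list: of 5 counted transition zone genes 3 were at least 2-fold higher (Krt6a, Nectin4 and Krt7) and 2 lower (Krt17 and Sox9), with a median log2 ratio of 1.59. Cxcl1, a neutrophil chemokine, had 4 UMIs against 199, and Lcn2 was at 54.0 CPM against 694. The secretory genes Chgb, Chga, Pyy and Pcsk1n were among the 10 smallest ratios, with 2, 3, 21 and 0 UMIs against 363, 269, 1773 and 138, as were Dapk2, Gm12840, Gm10260, Gm11361 and Ptp4a1. Gm10260, Gm11361 and Ptp4a1 also differed between the libraries in the Suprabasal and Rectum names. Of the 10 hair follicle genes 4 had enough UMIs to be counted, and all 4 were lower, among them Sox9 (-2.76). Of 8 counted anal gland genes 7 were lower. Over all genes 11.1% were lower. A gene can pass the UMI filter through normal Basal alone, so these counts are given as a description.

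Markers of other cell types were read in the same cells, after a gate that by the study's description removes leukocytes, endothelial cells and PDGFRa-positive fibroblasts. The 8 endothelial genes summed to 1.22 CPM (7 UMIs, most from Pecam1, with 6 genes at 0, Cdh5 and Cldn5 among them), and the 10 immune genes to 1.74 CPM (10 UMIs, Cd74 the most abundant, with 6 at 0, Cd3e and Tyrobp among them). The 6 melanocyte genes summed to 4.36 CPM, with Tyr and Tyrp1 at 0, the 5 red blood cell genes to 1.39 CPM and the 5 smooth muscle genes to 10.3 CPM. The 9 fibroblast genes summed to 125 CPM, with Dcn the most abundant at 51.4 CPM and Fbn1 at 0, and to 214 CPM in group 2. Their part in the level of group 2 was not tested.

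The 14 rectum genes summed to 439.6 CPM, against 14538 in wounded Rectum, 1866 in Hybrid, 406 in Suprabasal, 251 in Regeneration, 217 in Wound_Stress and 381 in normal Anal Canal, and to 1035 CPM in group 3. Krt19, which squamous cells can also express, was the most abundant at 234 CPM, and 792 in group 3. Krt8 was at 27.5 CPM, Cdx2 at 0, and Lypd8, a colon surface protein, at 34.1 CPM against 3528 in wounded Rectum and 35.5 to 244 in the other wounded names. Anal gland genes summed to 411 CPM against 4936 in Regeneration and 4139 in Wound_Stress, and hair follicle genes to 175 CPM against 3867 in wounded Suprabasal. Both gland and follicle lists had their lowest wounded sum in the cells named Basal.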

How the data were processed

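Single-cell 3′ libraries of sorted anorectal cells, 1 normal and 1 wounded, were aligned by the authors to mm10 with Cell Ranger 3.1.0 (the header of the wounded matrix names 4.0.0), and the deposited matrices hold UMI counts per gene and barcode. The authors filtered cells on detected genes and mitochondrial share, removed clusters of hair follicle, fibroblast and anal gland cells, and clustered and named the rest with Seurat 3.2.2. For the normal library they describe a further removal of hair follicle cells by Lgr5, Lhx2 and Tbx1. The part of this step in the ratios of hair follicle genes between the libraries was not tested. The deposited tables of named cells hold values on a natural log scale, whole numbers once back-transformed, and how those numbers were made is not given in the sources used here. Names were read from these tables and counts from the matrices.

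UMIs were summed per name and divided by the total of that name (CPM). Intervals are 95% exact Poisson for levels, exact binomial for log2 ratios and Clopper-Pearson for shares. UMIs are counted molecules, and the intervals cover counting error only. Where a group had 0 UMIs, 3 per group were allowed. Genes with at least 100 UMIs in both groups together were counted in each of the 4 comparisons. The genes named are the given markers, the 10 with the largest and smallest ratios in each comparison with at least 100 UMIs where higher, the most abundant list members or those past 2-fold against their list, and the 5 leading genes of each group of cells; others, such as the sex-linked genes, were chosen after their values were seen. The cells and gene lists were chosen with earlier results of these data known. Groups within the cells came from Seurat 5.3.0 (R 4.3.3) with 2000 variable features, 10 dimensions and resolution 0.2. Scrublet scores (scanpy 1.11.5) called 0 of 4147 wounded and 2 of 939 normal cells with its default cutoff, so these calls were set aside and no cell was removed as a doublet; 25 of the 573 cells were among the 5% with the highest scores. The ratio script was tested on simulated data. Positions are from GRCm38. Alternatives covered depth, mitochondrial share, doublet scores, totals, centring of ratios on their median, gene filters, thinning and resolution.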

Additional observations from a re-analysis of the deposited data

Results flagged for a closer look

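In the 2 libraries, the difference in summed level between cells named Basal and cells named Suprabasal had opposite signs for 4 keratins, and the intervals of each excluded 0. The log2 ratio of Basal over Suprabasal was -1.74 in the normal and 4.49 in the wounded library for Krt10, and -4.69 and 4.65 for Krt1. For Krt4 it was -1.83 (-3.92 to -0.11) and 6.10, with 4 and 12 UMIs behind the normal value. For Krt14 it was -0.35 and 0.59, but its thinned shares did not change order. Krt14 was in 96.9% of Basal and 100% of Suprabasal cells in the normal library, and in 92.6% and 99.4% in the wounded library. No change of order is therefore read for Krt14. With 1 library per condition the difference between the libraries was not tested. Whether the name Basal was given to the same kind of cells in both libraries was not tested either, and the wounded cells of this name were nearer to normal Anal Canal (r = 0.95) than to normal Basal (r = 0.88).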

How the results depend on the processing

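No paired analysis was possible because each condition is 1 library. Counts of genes at least 2-fold different moved with the gene filter and the fold. With at least 20 UMIs, at least 500 UMIs and a 4-fold limit, the other named wounded cells gave 1076, 221 and 215 higher and 2218, 721 and 709 lower genes. Wounded Suprabasal gave 1383, 193 and 199 higher and 1211, 295 and 300.0 lower. Normal Anal Canal gave 1129, 113 and 66 higher and 778, 164 and 62 lower, and normal Basal 1721, 198 and 270.0 higher and 1498, 218 and 215 lower. After the ratio of wounded to normal Suprabasal cells was subtracted, a step chosen after seeing the data, 160.0 genes were higher and 429 lower than in normal Anal Canal, and 487 higher and 826 lower than in normal Basal. Pearson's r with normal Basal, Suprabasal and Rectum was 0.82, 0.81 and 0.69 over genes with at least 1000 UMIs, and 0.68 with Rectum at a pseudocount of 1 CPM. Normal Anal Canal was the nearest in both settings (0.92 and 0.93). The cells fell into 5 groups at resolution 0.4, 5 without the cell-cycle regression and 7 at resolution 0.8. Over 6 alternatives each, the log2 ratios over the other wounded cells ranged from 3.92 to 5.35 for Krt10, 4.51 to 5.78 for Krt1, 5.26 to 7.08 for Krt4 and 2.43 to 2.76 for Gpc3. Against normal Anal Canal, Krt4 ranged from -0.20 to 0.02, so its sign was not fixed. Of the other values, for single genes and shares, 68 stayed within their counting interval, 69 did not, and the sign of Krt4 above was the 1 that changed.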
